A study of Mus musculus with 2 samples.

Results

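The mitochondrial ribosomal protein genes were taken as the protein-coding genes of RefSeq GRCm38 on an autosome or X whose symbols are Mrpl or Mrps followed by a digit. They numbered 78 of 20923 genes with a start, 49 Mrpl genes and 29 Mrps genes, and none was chosen by its ChIP-seq signal. Binding of IRF4, an interferon regulatory factor of B cells and plasma cells, was mapped by ChIP-seq (sequencing of DNA precipitated with an IRF4 antibody) in CH12.LX, a female mouse B-cell lymphoma line of strain B10.H-2aH-4bp/Wts. There were 2 biological replicates in 1 group, with no treatment and no second genotype, so the results are counts and levels at these genes beside the same over all protein-coding genes, with no test. A control experiment named in the labels was not used here, no RNA was measured, and the cell type could not be checked against markers. The sources give no read numbers, and the depth is unknown.

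The mitoribosome is the ribosome inside mitochondria. It translates the messenger RNAs of the mitochondrial genome, which encode core subunits of the respiratory chain and of ATP synthase. Its RNAs are mitochondrial, whereas all of its proteins are encoded in the nucleus, made in the cytosol and imported. Mrpl genes are named for the large subunit, which joins amino acids, and Mrps genes for the small subunit, which reads the messenger RNA. The names are historical: the proteins of Mrps18a and Mrps30 sit in the large subunit, and that of Mrps36 is now assigned to the 2-oxoglutarate dehydrogenase complex. In activated B cells and plasma cells, respiration and mitochondrial protein synthesis are known to increase.

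IRF4 summits were frequent at the starts of these genes. In the optimal list, made by the authors from both replicates with the irreproducible discovery rate (IDR), 65 of the 78 genes (83.3%, 95% Wilson interval 73.5 to 90) had a summit within 10 kb of the gene start. Over all protein-coding genes the share was 50.3%. Within 1 kb the count was 55 of 78 (70.5%, 59.6 to 79.5), beside 31.9% of all genes. The levels at these summits were moderate: the median signal of the strongest summit within 10 kb was 53.9 (binomial 95% interval 48.1 to 63.2), beside 49.2 over all genes with a summit. Signal here is the value the authors' caller gave each peak, on a scale that is not stated, and the median of the whole optimal list was 41.4. The Wilson intervals cover counting error over genes only, and genes are not replicates.

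The promoters of the members with the strongest summits inside the window from 250 bases before to 50 bases after the RefSeq start are shown so that the sites counted further on can be read at the members with most signal. The site of nuclear respiratory factor 1 (NRF1), a known activator of nuclear genes for mitochondrial proteins, is in capitals where its letters GCGCNTGCG were found on either strand. Sequences are from RefSeq, build GRCm38.p6, on the strand of the gene. For Mrpl12 (chr11:120484487-120484636, plus strand) and Mrpl52 (chr14:54426759-54426908, plus strand) the 150 bases before the start are given, and for Mrpl39 (chr16:84735350-84735379, minus strand) and Mrpl1 (chr5:96210085-96210114, plus strand) a shorter stretch.
Mrpl12: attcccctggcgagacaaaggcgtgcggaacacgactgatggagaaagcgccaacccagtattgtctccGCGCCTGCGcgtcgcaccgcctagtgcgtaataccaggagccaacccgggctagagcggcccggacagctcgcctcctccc
Mrpl52: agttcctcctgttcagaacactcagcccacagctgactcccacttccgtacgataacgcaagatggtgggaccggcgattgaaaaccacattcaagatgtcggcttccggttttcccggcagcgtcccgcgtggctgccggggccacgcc
Mrpl39: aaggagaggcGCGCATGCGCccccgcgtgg
Mrpl1: cgcgcggaaccctttttcgcatttccgtgc
The palindromic form GCGCATGCGC at Mrpl39 begins 125 bases before its start, and the match at Mrpl12 begins 81 bases before. The Mrpl12 summit lay 24 bp upstream of the start and the Mrpl39 summit 49 bp upstream, so neither was centred on the match. Mrpl1 is read here from the RefSeq promoter start, which lies 617 bases inside the outermost gene start used for its distance.

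Some of the strongest summits were not at the start itself, and sequence at such summits could be read only in the separate mm9 list. Windows of 50 bases either side of the strongest mm9 summit are given. The genes are those among the 10 strongest whose main mm10 summit lay over 1 kb away. For Mrpl16, Mrpl18 and Mrpl37 the mm9 summits lay 3786, 4927 and 5686 bp upstream, beside 3793, 3484 and 5710 bp on mm10. Coordinates were not converted between builds, so these were not shown to be the same summits. Capitals mark an ETS-IRF composite element (EICE, GGAANNGAAA) in the first pair and an AP-1 site (TGANTCA) in the last, on the strand of the gene. The Mrpl16 window is chr19:11841045-11841145 (mm9, plus strand, intergenic), the Mrpl18 window chr17:13114088-13114188 (mm9, minus strand, an intron of Tcp1, a chaperonin subunit gene) and the Mrpl37 window chr4:106745109-106745209 (mm9, minus strand, an intron of Cyb5rl).
Mrpl16: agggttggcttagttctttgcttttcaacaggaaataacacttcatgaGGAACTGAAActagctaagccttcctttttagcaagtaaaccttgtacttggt
Mrpl18: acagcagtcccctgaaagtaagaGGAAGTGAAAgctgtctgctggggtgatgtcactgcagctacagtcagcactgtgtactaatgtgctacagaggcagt
Mrpl37: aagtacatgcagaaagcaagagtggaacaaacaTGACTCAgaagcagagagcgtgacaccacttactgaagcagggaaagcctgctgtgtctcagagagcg

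Among the large subunit genes, Mrpl16 had the strongest summit of the family. Its protein is a conserved component near the tRNA-binding sites. The peak (chr19:11766554-11766680, mm10) had a signal of 189.6 (replicate 1, 82.1, and replicate 2, 109.9), and its summit lay 3793 bp upstream of the start. A second Mrpl16 summit, 92 bp upstream, had 74.97 (25.7 and 51.2 in the replicates). Both replicates therefore had the distal summit as the higher of the pair.

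At Mrpl39, whose protein has no bacterial counterpart and resembles a threonyl-tRNA synthetase, the only summit lay 49 bp upstream (chr16:84735247-84735365). Its signal was 177, with 65.7 and 111 in the replicates. Mrpl12 encodes the stalk protein that recruits translation factors. Its main peak (chr11:120484443-120484782) reached 150.1, and the replicate values were 50.2 and 99.3. Mrpl10, the gene of the protein that anchors this stalk, had a summit 164 bp upstream with a signal of 55.6, matched only in replicate 2 (31.5). A weaker Mrpl10 summit, 43 bp downstream (18.9), was matched in both (32.4 in replicate 1 and 12.7 in replicate 2). The partners of the stalk thus differed in level, and the stronger Mrpl10 summit lay nearer to the start of Lrrc46 (49 bp) than to its own.

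Mrpl52, also specific to mitochondria, had its main summit 89 bp upstream (chr14:54426650-54426989, signal 133). The replicate values there were 60.7 and 72.9. Mrpl37 had a summit 5710 bp upstream at 126 (chr4:107072406-107072745), 47.0 in replicate 1 and 77.2 in replicate 2. At the Mrpl37 start itself the signal was 23.0, and Mrpl37 is thus a gene whose IRF4 signal lay mostly away from the start. Mrpl18, which belongs to the central protuberance, had its main summit 3484 bp upstream (chr17:12921101-12921440, signal 117), with 44.7 in replicate 1 and 70.5 in replicate 2.

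Mrpl1, the protein of the L1 stalk, had 1 summit (chr5:96209953-96210292, signal 117), with 49.9 in replicate 1 and 69.5 in replicate 2. That summit lay 625 bp downstream of the outermost start and 8 bp from the RefSeq promoter start. Mrpl13, a conserved large subunit gene, reached 116 at chr15:55557221-55557560, with 34.3 in replicate 1 and 86.4 in replicate 2. This summit lay 79 bp upstream of Mrpl13 but 13 bp from the start of Mtbp, so it is shared between divergent genes. Mrpl2, whose protein lies near the catalytic centre, reached 109 at chr17:46646059-46646398 (51.8 in replicate 1 and 58.3 in replicate 2), and the start of Klc4 was nearer (40 bp). Mrpl17, a protein of the exit tunnel region, had a signal of 104 at chr7:105811049-105811388. It was the only one of the 10 strongest with the lower value in replicate 2 (48.7, beside 52.0 in replicate 1).

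**Figure D1:**
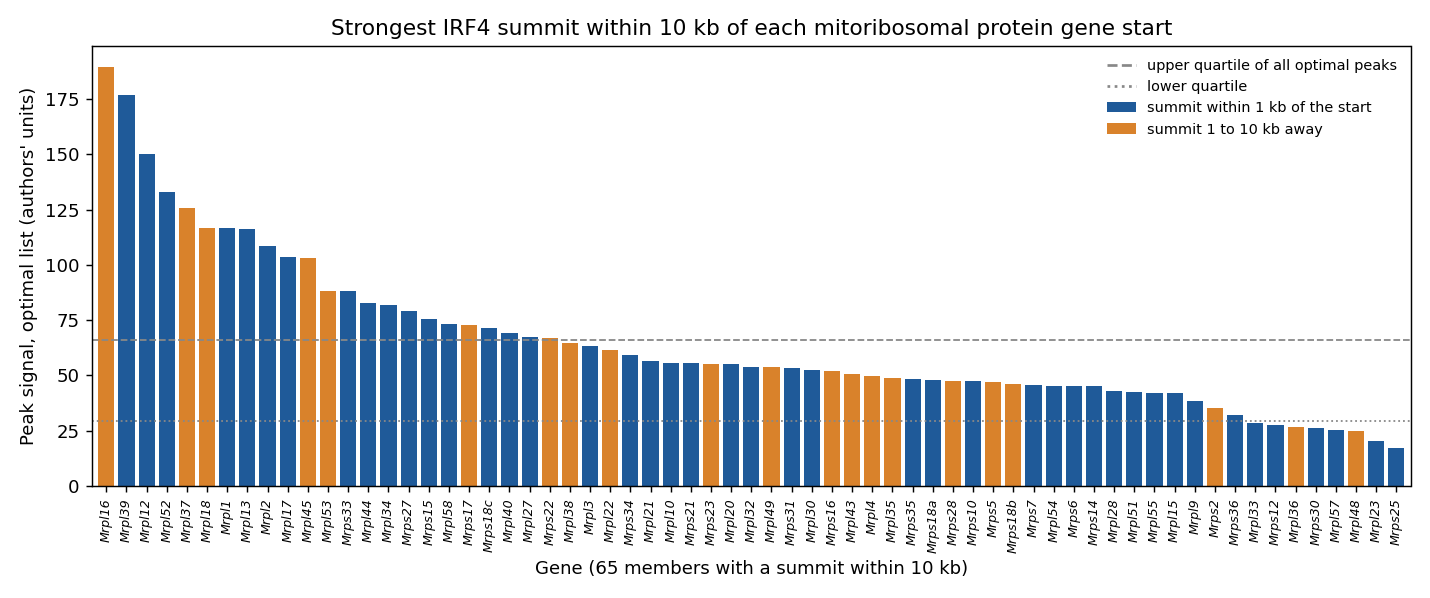
Signal of the strongest IRF4 summit within 10 kb (authors' units) for each mitochondrial ribosomal protein gene with a summit, by gene, in blue where the summit lies within 1 kb of the start and in orange where it is farther, with the upper and lower quartiles of the optimal list as dashed and dotted lines. The 10 highest, from Mrpl16 at 189.6 to Mrpl17 at 104, are all Mrpl genes, with those of Mrpl16, Mrpl37 and Mrpl18 over 1 kb away.

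All 10 of the strongest summits were at Mrpl genes, and all were also in the conservative list, which is the stricter IDR list. Mrpl genes make up 49 of the 78 members. At Mrpl16, Mrpl37 and Mrpl18 the strongest summit lay over 1 kb away. Within 1 kb these genes had 74.97, 23.0 and no summit, and Mrps33 (88.1) stood above them. Of the Mrpl genes, 40 of 49 (81.6%, 68.6 to 90) had a summit within 10 kb and 35 (71.4%) within 1 kb. Of the Mrps genes, 25 of 29 (86.2%, 69.4 to 94.5) had one within 10 kb and 20 (69%) within 1 kb. In the conservative list the order was the other way, with 41 of 49 Mrpl and 19 of 29 Mrps genes within 10 kb. The difference in frequency between the subunits was not tested. The median strongest signal was 58.9 at Mrpl and 47.7 at Mrps genes, and 17 Mrpl genes against 6 Mrps genes reached the strongest quartile of the optimal list (66.2 and above). Grouped by where the protein sits, with Mrps36 left out, 42 of 51 large subunit genes and 22 of 26 small subunit genes had a summit within 10 kb, with medians of 56.0 and 50.1. The gap in medians was narrower by protein position than by symbol, and it was not tested.

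The small subunit genes had lower maxima. Mrps33 led them with 88.1, 45 bp upstream of its start (39.5 in replicate 1 and 43.4 in replicate 2). Mrps27, the gene of a pentatricopeptide repeat protein, had 79.3 at 31 bp upstream (replicates, 25.9 and 53.6). Mrps15, a conserved protein bound to the ribosomal RNA, had 75.5 (replicates, 26.2 and 48.5). These 3 genes were named after their values were seen, and each had its main summit within 50 bp of the start. Mrps7, of the small subunit head, had 5 summits within 10 kb, the strongest 13 bp upstream at 45.4 (11.03 in replicate 1 and 36.04 in replicate 2). Mrps12, which encodes a protein of the decoding centre, was low in both replicates (10.7 and 14.4, optimal signal 27.7) and absent from the conservative list. Its summit is also that of Sars2, the mitochondrial seryl-tRNA synthetase gene on the other strand. Mrps25 was the lowest member with a summit (17.0), matched only in replicate 2 (11.7). Another Mrps25 summit, 232 bp downstream (15.1), was matched only in replicate 1 (9.46).

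The strongest summits of all members with one were also read by quartile. By the quartiles of the optimal list, 23 of the 65 strongest summits were in the strongest quartile, 31 in the next, 3 in the third and 8 in the weakest. Over all genes with a summit 31.0% were in the strongest quartile and 14.3% in the weakest, beside 35.4% and 12.3% here. In the strongest quartile, beside those described, were Mrpl44 (82.8, with 25.3 in replicate 1 and 54.9 in replicate 2), whose protein resembles RNase III, and Mrpl34 (81.8, matched only in replicate 2 at 60.3). Mrps18c followed with 71.5, Mrpl40 with 69.4 (36.6 and 33.2) and Mrps22 with 66.7 (28.7 and 36.7), and all 5 were named after their values were seen. Of these, Mrpl44, Mrpl34, Mrps18c and Mrpl40 had another gene's start nearer to the summit than their own. The weakest quartile held Mrpl33, Mrps12, Mrpl36 (26.4), Mrps30 (26.0), Mrpl57, Mrpl48, Mrpl23 (20.2) and Mrps25, all below 29.4.

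Summits gathered close to the starts. The median distance of the strongest summit was 151 bp, beside 1539 bp over all genes with a summit. It lay within 1 kb in 44 of the 65 genes (67.7%, beside 44.6% of all genes), within 250 bp in 38 and within 100 bp in 29. It was upstream in 33 and downstream in 32. In the 250 bp before the start 33 members (42.3%) had a summit, beside 14.1% of all genes. In the 250 bp after it 23 members (29.5%) had one, beside 10.8%. Members and all genes differed most around the start itself.

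**Figure D2:**
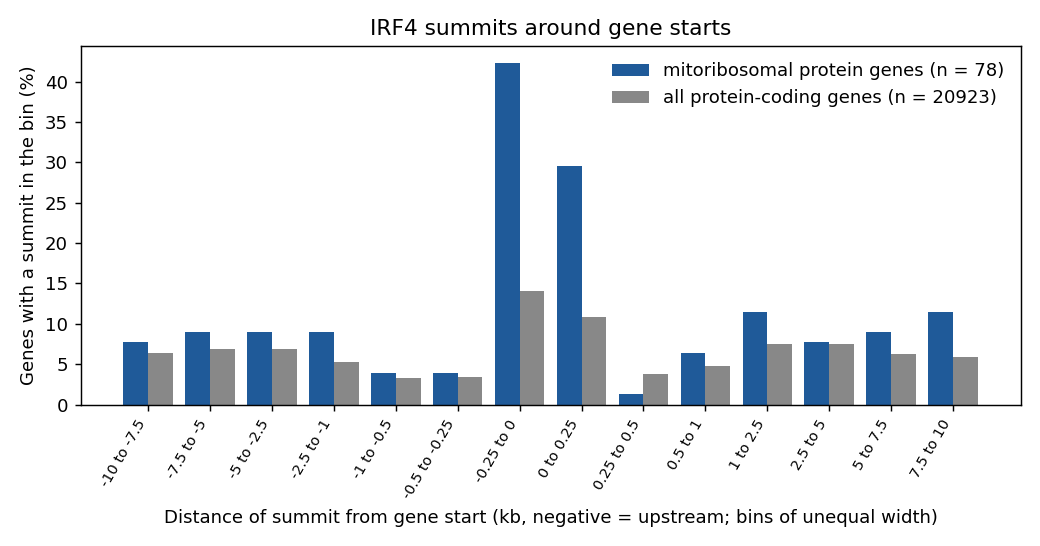
Percent of genes with an optimal IRF4 summit by distance from the gene start (kb, negative upstream), in bins of unequal width, for mitochondrial ribosomal protein genes (blue) and all protein-coding genes (grey). The members' bar is highest in the 250 bp before the start, at 42.3% beside 14.1% of all genes.

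The summits nearest to a start lay almost on it. Mrpl27, near the peptidyl transferase centre, had one at 1 bp downstream with a signal of 67.3. Within 100 bp this was matched in replicate 1 only (16.3). A second Mrpl27 summit, 204 bp downstream, was matched in both (15.4 in replicate 1 and 50.8 in replicate 2). Mrps21 had one at 6 bp downstream (55.6, with 24.9 in replicate 1 and 32.5 in replicate 2). Mrpl58, the gene of a peptidyl-tRNA hydrolase that rescues stalled ribosomes, had one at 8 bp downstream (73.1, with 30.7 and 43.4). Mrpl30 had one at 8 bp downstream as well (52.4, with 13.7 in replicate 1 and 40.4 in replicate 2). Mrpl51 had one 9 bp upstream with a signal of 23.4, but its strongest, 519 bp upstream, had 42.3 (24.4 in replicate 1 and 16.02 in replicate 2) and lay nearer to the start of Ncapd2. None of these 5 genes was among the 10 strongest, though Mrpl12 and Mrpl39, with summits 24 and 49 bp upstream, were.

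In 21 genes the strongest summit lay 1 to 10 kb away, 10 upstream and 11 downstream. Its signal ranged from 24.6 to 189.6 with a median of 53.8, beside 53.6 over all genes of that kind. For the 44 genes with the strongest summit within 1 kb the range was 17.0 to 177 and the median 54.5, beside 44.7 over all genes. The median promoter summit of the members stood above that of all genes and the distal one did not, a difference that was not tested. The strongest summit was not always nearest to the member's own start. The strongest summit within 10 kb of Mrpl53 (88.3), for example, lay 6390 bp downstream and 8 bp from the start of Mogs, an endoplasmic reticulum glucosidase gene, whereas the summit 72 bp upstream of Mrpl53 had a signal of 39.4. The strongest summit assigned to Mrps17 lay 13 bp from the start of Nipsnap2.

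Several members had more than 1 summit. Exactly 1 summit within 10 kb was found in 30 members, 2 in 12 and 3 or more in 23, with 137 distinct summits in all. Over all genes 23.5% had exactly 1, 13.4% had 2 and 13.4% had 3 or more. Mrpl53, Mrpl35 and Mrps7 had 5 each, and Mrpl16 and Mrpl52 had 4. At Mrpl35 the signals ran from 8.01 to 48.8, and the strongest was 7501 bp upstream, 194 bp from the start of Immt, which encodes an organiser of mitochondrial cristae. Many of these summits were therefore at neighbouring genes or in the lower part of the list.

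The replicates were set side by side at the nearest summit within 100 bp. Of the 65 strongest summits, 56 were matched in both replicates. Their median signal was 24.7 in replicate 1 and 35.4 in replicate 2, and the median log2 ratio of replicate 2 to replicate 1 was 0.51 (binomial 95% interval 0.35 to 0.85). Over all 37635 matched optimal peaks it was 0.53, so the family followed the overall offset between the replicates. The ratio was above 0 in 46 genes and below 0 in 10, and 39 of the 56 lay within 1 SD (0.66) of the overall median. The median of all matched optimal peaks was above 0 too, so the count above 0 does not set the family apart.

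Single genes departed from that offset. Mrpl15, of the conserved large subunit core, had 7.85 in replicate 1 and 33.4 in replicate 2, a log2 ratio of 2.09. Mrps2 (8.80 and 31.9) and Mrps36 (6.29 and 22.4) had ratios of 1.86 and 1.83. These 3 summits had optimal signals of 41.9, 35.1 and 31.9, and none was in the conservative list. In the other direction Mrpl57 had 11.7 in replicate 1 and 5.48 in replicate 2, a ratio of -1.09. Mrpl51 had a ratio of -0.61 and Mrpl21 one of -0.34 (30.3 and 23.9). These 6 genes were the farthest from the median, 3 each way, and all had signals under the strongest quartile. Of the 10 strongest genes, Mrpl13 lay more than 1 SD from it, with a ratio of 1.33.

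**Figure D3:**
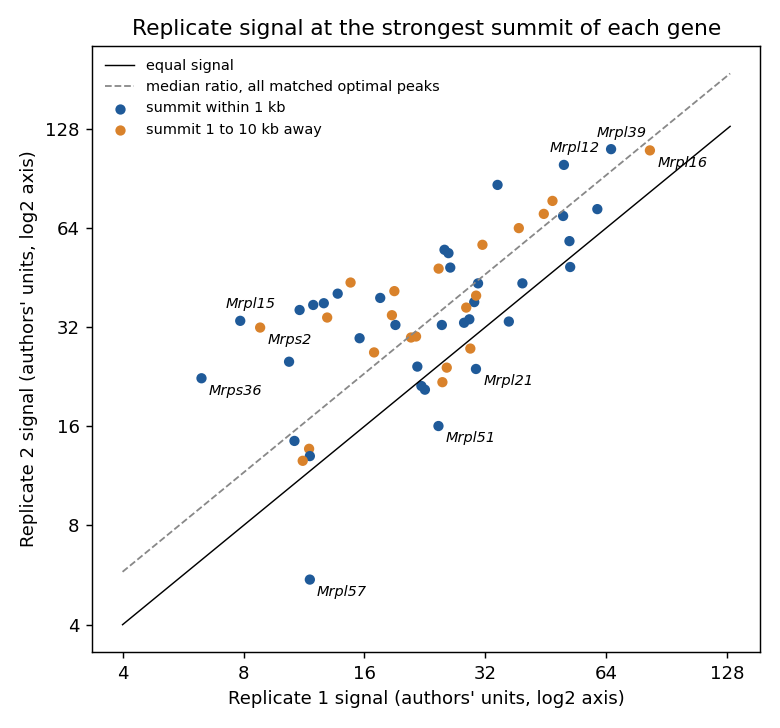
Signal in replicate 1 (x) and replicate 2 (y), authors' units on log2 axes, at the strongest summit of the 56 members matched in both, with lines for equal signal and for the median ratio of all matched optimal peaks. Most points lie above the line of equal signal, 46 of 56, as does the line for all matched optimal peaks, and Mrpl57 lies lowest.

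In the conservative list 60 of the 78 members had a summit within 10 kb, beside 44.6% of all genes. Of the 65 strongest optimal summits, 55 (84.6%) were also conservative peaks, beside 80.2% over all genes. The share was 36 of 40 in Mrpl genes and 19 of 25 in Mrps genes. The strongest of the 10 that were not was at Mrps6 (45.2, matched only in replicate 2 at 39.2), 221 bp upstream. Mrpl15, Mrps2 and Mrps36 followed, then Mrpl33 (28.6) and Mrps12 (27.7). Thus no member past a signal of 45.2 lacked a conservative peak at its strongest summit.

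No optimal summit lay within 10 kb of Mrpl11, Mrpl14, Mrpl19, Mrpl24, Mrpl41, Mrpl42, Mrpl46, Mrpl47, Mrpl50, Mrps9, Mrps11, Mrps24 and Mrps26. Yet 11 of these 13 had a summit within 1 kb of the start in the relaxed lists of both replicates, beside 20.7% of all genes with no optimal summit within 10 kb. The conservative list, in turn, had summits at 4 of them. Mrpl42 had one 68 bp downstream (36.6, with 13.5 in replicate 1 and 21.1 in replicate 2). Mrpl41 had one 164 bp upstream (35.3, with 11.4 in replicate 1 and 18.7 in replicate 2). Mrpl50 had one 45 bp downstream (35.1) and Mrpl47 one 52 bp upstream (23.1). These peaks were absent from the optimal list although the conservative list is the stricter of the pair. Of the conservative peaks, 4023 were not intervals of the optimal list.

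Counting either list, 69 of 78 members had a summit within 10 kb and 62 within 1 kb, beside 52.4% and 34.5% of all genes. Mrpl46 and Mrps11, a large and a small subunit gene that start back to back, shared a relaxed peak (22.5, with 8.90 in replicate 1 and 13.3 in replicate 2) that was in neither IDR list. Mrpl24 was the only one of the 13 with no summit within 1 kb in any relaxed list. Most of these 13 genes therefore had a summit within 1 kb in the relaxed lists, with pooled signals from 14.03 (Mrpl19) to 36.6 (Mrpl42). The pooled relaxed list was deposited as peaks and background for IDR, so such a summit can be background.

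At the 10 kb limit itself, the 3 members just inside by their nearest summit were Mrps17 (9553 bp, signal 72.9), Mrpl45 (4571 bp, 103) and Mrps23 (3226 bp, 55.2). Mrpl45, whose protein sits near the inner membrane at the tunnel exit, had 2 optimal summits, both distal. Other lists held a summit near its start: the conservative list had one 452 bp downstream (10.2), and the relaxed lists had one within 1 kb in replicate 1 (16.1) and replicate 2 (24.7). Just outside were Mrpl42 (10896 bp, 58.7), Mrpl24 (11930 bp, 43.4) and Mrpl41 (12689 bp, 72.7). Alternative starts also mattered: 5 of the 23 members with no summit within 1 kb of the outermost start had one within 1 kb of another RefSeq start. Taking RefSeq promoter starts in place of the outermost start gained these 5 and lost Mrpl36, which gave 59 members within 1 kb. The share of all genes with these starts is not given here, so the gain is not shown to be particular to the family. At Mrps23 the summit lay 56 bp upstream of a start 10282 bp further in, at 63.6 (18.8 in replicate 1 and 47.2 in replicate 2).

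The promoters of the family are of a kind at which summits are frequent in general. With an observed to expected CpG ratio of 0.6 or more as CpG-rich, 64 of the 69 members with a RefSeq promoter sequence were CpG-rich, beside 49.0% of all 17274 promoters. Among CpG-rich promoters 45 of 64 members (70.3%) had a summit within 1 kb, beside 51% of all genes of that class. Among the others 4 of 5 members had one, beside 14.1%. The gap to all genes was thus smaller within CpG-rich promoters than over all genes, where it ran from 31.9% to 70.5%. Of 19 CpG-rich members with no optimal summit within 1 kb, 16 had a relaxed summit there in both replicates. Over all CpG-rich genes with no such optimal summit the share was 52.1%.

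Many members start close to another gene. Another protein-coding start lay within 1 kb in 33 of 78 members, beside 11.1% of all genes, and in 32 of them it was on the opposite strand. Some partners also serve mitochondria: Sars2 beside Mrps12, the helicase gene Twnk beside Mrpl43, the complex I genes Ndufs6 beside Mrpl36 and Ndufb5 beside Mrpl47, and Ptcd2 beside Mrps27 (chosen after their values were seen). Among CpG-rich promoters with such a neighbour, 19 of 28 members had a summit within 1 kb, beside 67.4% of all genes of that class. With no such neighbour 26 of 36 did, beside 47%. The members with a shared start were at the level of other shared CpG-rich starts, and those standing alone were above their class; the gap between these was not tested. The parts of CpG content and of neighbouring starts in the higher count were not tested further.

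**Figure D4:**
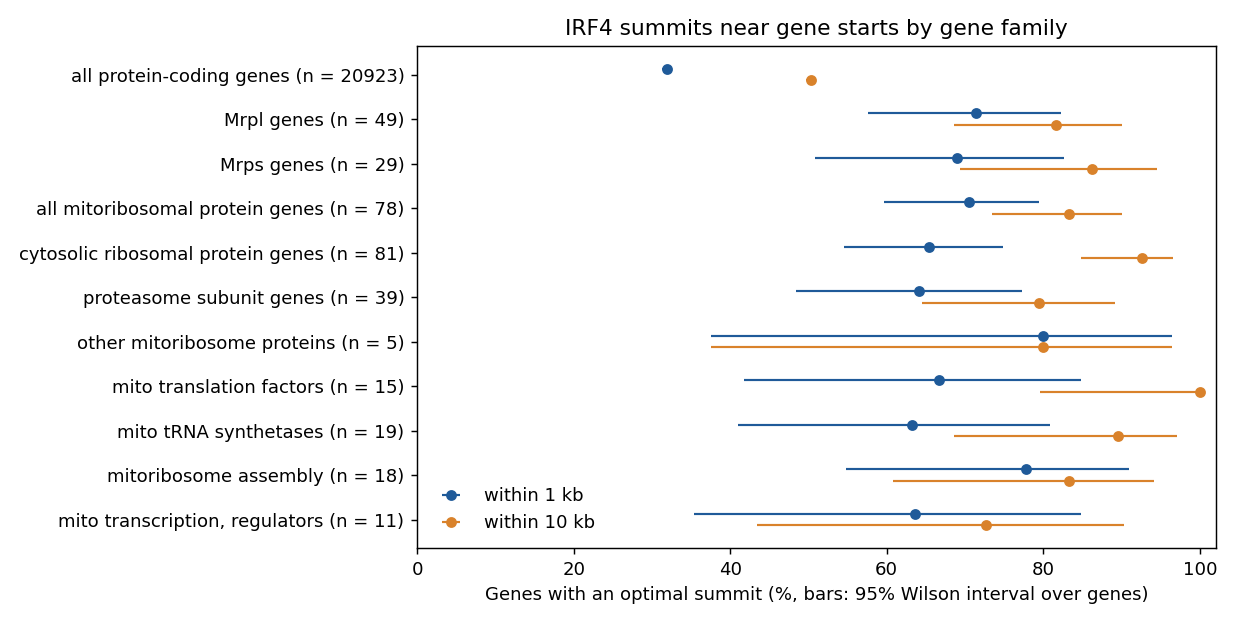
Percent of genes with an optimal summit within 10 kb and within 1 kb (x, with 95% Wilson intervals) for the mitochondrial ribosomal protein genes, their subunit groups, related lists and comparison families (y). The members lie at 83.3% and 70.5%, beside 50.3% and 31.9% of all genes.

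Which short sequences the promoters hold was counted in the 300 bases of the RefSeq window, on both strands. The ETS site CCGGAAGT was in 11 of 69 members (15.9%), beside 5.34% of all promoters and 9.08% of CpG-rich ones. The NRF1 site GCGCNTGCG was in 18 (26.1%), beside 9.12% and 17.4%. The YY1 site AANATGGCG was in 11 (15.9%), beside 3.30% and 5.92%. GABP, an ETS factor, NRF1 and YY1 are known regulators of nuclear genes for mitochondrial proteins, and the share with each of their sites was higher here than in either background.

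Examples of NRF1 and ETS matches, chosen after their values were seen, are from RefSeq GRCm38.p6 on the strand of the gene, with the NRF1 site in capitals in the first pair and the ETS site in the second. They are Mrpl32 (chr13:14613105-14613134, minus strand), Mrpl9 (chr3:94443298-94443327, plus strand), Mrpl3 (chr9:105053238-105053267, plus strand) and Mrps22 (chr9:98601680-98601709, minus strand).
Mrpl32: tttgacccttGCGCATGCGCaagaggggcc
Mrpl9: aggcgcagctGCGCATGCGCggggtccttc
Mrpl3: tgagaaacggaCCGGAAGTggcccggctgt
Mrps22: tgcacaaaaacctctcgagCCGGAAGTtgc
Mrpl32 and Mrpl9 hold the same 10 bases as Mrpl39 shown above, yet their signals of 53.9 and 38.6 were well under the 177 of Mrpl39. The Mrpl32 summit lay 248 bp upstream and nearer to the start of Psma2 (43 bp), a proteasome subunit gene that shares it. Mrpl3, a conserved large subunit protein gene, had a summit 11 bp upstream (63.2, with 28.3 in replicate 1 and 33.0 in replicate 2), beside its ETS match.

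Sites that IRF4 is known to use were not frequent. The EICE, GGAANNGAAA, was in 2 of the 69 promoters, those of Mrpl10 and Mrps16. That is 2.90%, beside 2.67% of all promoters and 1.83% of CpG-rich ones. The tandem IRF site GAAANNGAAA was in 3, Mrps18c, Mrps21 and Mrpl20 (4.35%, beside 3.43% and 2.3%). AP-1 (TGANTCA) was in 3 (4.35%), which was below the 7.09% of all promoters and above the 3.43% of CpG-rich ones. The SP site GGGCGG was in 49.3%, beside 46.9% of all and 74.2% of CpG-rich promoters. CCAAT was in 39.1%, beside 39.6% and 37.9%, and the E-box CACGTG in 7.25%, beside 8.01% and 11.5%. Of the 11 members with the ETS site 9 had a summit within 1 kb, and of the 58 without it 40 did, beside 64.9% and 30.3% of all genes with and without it. For NRF1 the counts were 13 of 18 with the site and 36 of 51 without, beside 55.4% and 29.8% of all genes. For YY1 they were 8 of 11 and 41 of 58, beside 61.8% and 31.1%. Over all genes summits were more frequent with each of these sites, while members had many summits with or without the site. These matches are letters in a window, not binding sites.

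**Figure D5:**
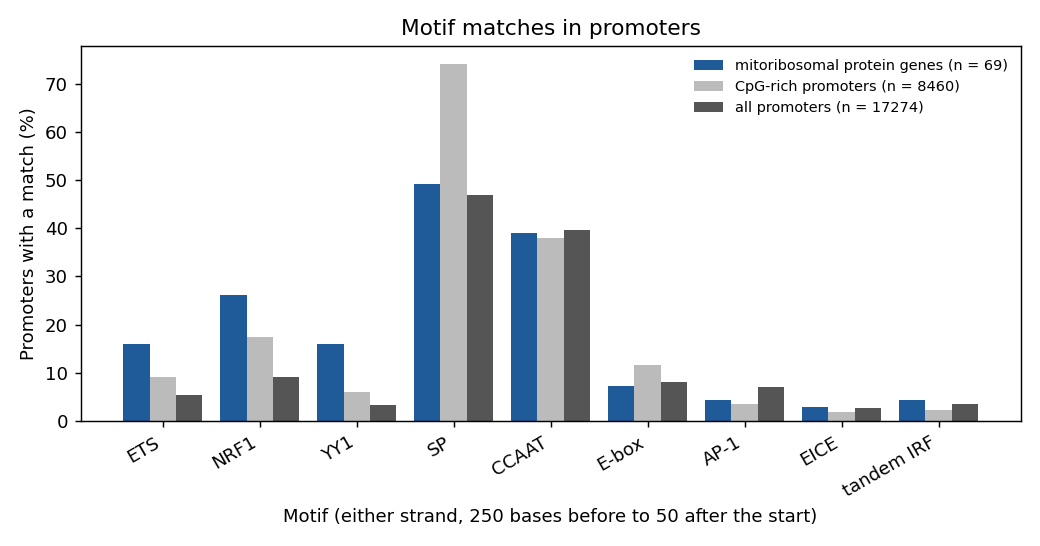
Percent of promoters with a match to each motif (300 bases, both strands) for mitochondrial ribosomal protein genes (blue), CpG-rich promoters (light grey) and all promoters (dark grey). ETS, NRF1 and YY1 matches were more frequent in the members than in both backgrounds, at 15.9%, 26.1% and 15.9%.

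Under the summits themselves, sequence could be read on the mm9 list, with windows of 50 bp either side. That list is shorter, and 43 of 77 matched members (55.8%, beside 33.4% of mm9 genes) had a summit within 10 kb and 35 (45.5%, beside 17.4%) within 1 kb. Among 37 member peaks within 1 kb, EICE was in 1 (2.70%, beside 4.48% of all 3774 such peaks) and the tandem IRF site in 1 (2.70%, beside 3.87%). AP-1 was in 0 (beside 4.88%) and NRF1 in 0 (beside 3.39%). ETS was in 3 (8.11%, beside 6.15%) and CCAAT in 8 (21.6%, beside 10.7%). Among 30 member peaks 1 to 10 kb from the member's start, EICE was in 3 (10%), AP-1 in 5 (16.7%) and the tandem IRF site in 0. The shares were 8.63%, 15.2% and 5.91% of the 5587 peaks whose nearest protein-coding start was 1 to 10 kb away. The sets are not alike, because a member peak could lie near another gene's start. The peak 6405 bp downstream of Mrpl53, for example, was in an exon of Mogs. These counts are small, and no difference from other peaks was tested. The Mrpl16 and Mrpl18 windows shown above are both EICE matches, with signals of 458 and 143 on the mm9 list, and the third lay 1023 bp upstream of Mrps28. The Mrpl37 window, at 163, holds an AP-1 match.

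Other genes of mitochondrial translation also had many summits. Of the 15 translation factor genes, all had a summit within 10 kb and 10 within 1 kb. Taco1, which encodes an activator of cytochrome c oxidase translation, reached 125 at 28 bp upstream (49.8 in replicate 1 and 75.8 in replicate 2), and Mtif2, an initiation factor gene, 91.4 at 1066 bp downstream. Of the 19 matched genes of mitochondrial tRNA synthetases and the amidotransferase, 17 had a summit within 10 kb and 12 within 1 kb. Qrsl1, an amidotransferase subunit gene, had the highest signal in these lists, 303 at 3346 bp downstream (130.2 in replicate 1 and 172 in replicate 2). Tars2 had 108 at 1365 bp downstream. The Qrsl1 signal exceeded that of every mitochondrial ribosomal protein gene.

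Of 18 matched assembly and ribosomal RNA modification genes, 15 had a summit within 10 kb and 14 within 1 kb. Ngrn, needed for the large ribosomal RNA, had 109 at 16 bp upstream, and Mtg1, an assembly GTPase gene, 87.1 at 60 bp downstream. Among 5 mitoribosome proteins with other symbols, 4 had a summit within 10 kb, and Ptcd3 had none. Aurkaip1 (112, 238 bp downstream) and Chchd1 (58.4, 8640 bp upstream) led them. Of 11 genes of mitochondrial transcription and its regulators 8 had a summit within 10 kb. The highest was at Tfam, the packaging and transcription factor of mitochondrial DNA (116, 1460 bp upstream). Ppargc1a, a coactivator of mitochondrial biogenesis, followed (99.2, 4417 bp downstream). Nrf1 had none within 10 kb. The lists are short, and each count is read only beside the 50.3% and 31.9% of all genes.

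The cytosolic ribosomal protein genes and the proteasome were set beside the family as other large complexes. Of 81 cytosolic ribosomal protein genes, 75 (92.6%) had a summit within 10 kb and 53 (65.4%) within 1 kb, with a median strongest signal of 47.2. The highest were at Rpl35 (219.5, 6394 bp upstream) and Rpl39l (179, 1346 bp downstream). Of 39 proteasome subunit genes, 31 (79.5%) had one within 10 kb and 25 (64.1%) within 1 kb, with a median of 64.9. The highest were Psmb9, an immunoproteasome gene (333, 6617 bp downstream), and Psmd1 (227, 4978 bp upstream). Neither of these genes had a summit within 1 kb. Within 1 kb both shares lay inside the interval of the mitochondrial ribosomal protein genes (59.6 to 79.5), and both families had higher single signals.

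The count was also read by chromosome. On chromosome 11, 10 of 11 members had a summit within 10 kb, beside 70.8% of its genes, and all 3 members on chromosome 16 had one, beside 59.2%. Off these chromosomes the counts were 52 of 64 within 10 kb, beside 48.3% of genes there, and 45 of 64 within 1 kb, beside 30.4%. The family's share was about as high without chromosomes 11 and 16.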

How the data were processed

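IRF4 ChIP-seq lists of 2 biological replicates of CH12.LX were used; the labels say nothing of separate cultures. The authors deposited lists in narrowPeak format: relaxed lists of replicate 1 (215095 peaks), replicate 2 (300000) and the pool (300000), an optimal (44058) and a conservative (35879) IDR list on mm10, and a list of 27671 peaks on mm9. Per the deposited file descriptions, the IDR lists were made from the relaxed lists. Column 7 holds the deposited signal value of each peak, whose scale is not stated. The sources name no aligner or caller and give no depth.

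Gene starts were the outermost RefSeq starts, with the strand from the RefSeq promoter table (17274 genes) or else GENCODE (3649). Summits were assigned within 10 kb and 1 kb, and replicates matched to the nearest summit within 100 bp. On mm9, GENCODE genes and sequence were used, and coordinates were never converted. The members, lists and named genes were chosen with earlier results of these data known. The genes named were those with the 10 strongest and 5 nearest summits, the 5 with most summits, the 3 each way farthest from the median replicate ratio, up to 6 without a conservative peak, the 3 on either side of 10 kb, all without a summit, and 2 of each list; others are said to be chosen after their values were seen. Gatb, Noa1, Mterf3 and Malsu1 had no start and were not analysed here. Python 3.11.15, numpy 2.4.6, pandas 2.3.3, scipy 1.17.1 and matplotlib 3.10.9 were used, and the counting was tested on simulated data. Alternatives were the peak list, threshold, window, assignment, replicate, build, match distance, CpG ratio and motif.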

Additional observations from a re-analysis of the deposited data

How the results depend on the processing

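Of 36 alternatives for the mitochondrial ribosomal protein genes, 32 stayed close to the value reported and 4 moved. Close meant within 1.5 times the reported count, or for medians not outside the binomial interval given above. For the counts within 10 kb and 1 kb, 1.5 times the reported count exceeds the 78 members. Only a fall in those counts could therefore be labelled as moved. On the shorter mm9 list 43 members had a summit within 10 kb and 35 within 1 kb. A CpG ratio of 0.75 left 41 CpG-rich members, beside 34.5% of promoters. The shorter ETS letters GGAAG were in 56 promoters, beside 71.9%. Leaving out each replicate gave 65 to 71 members within 10 kb and 52 to 64 within 1 kb, the higher values without replicate 1. Over all alternatives the counts ran from 43 to 73 and from 35 to 64. The share of all genes within 10 kb changed too, from 50.3% to 44.6% on the conservative list and 33.4% of mm9 genes on the mm9 list. These member counts alone therefore do not show how far the family stood from all genes. Of 180 alternatives for the other lists and subunit groups, 7 moved. Counting any RefSeq start, and leaving out chromosomes 11 and 16, were added after seeing the data. No paired analysis was possible because there is 1 group. Depth is unknown, so a missing summit does not show absent binding. Outermost starts misplace genes with inner promoters.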

Other observations

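Mrpl48, the gene of a large subunit protein specific to mitochondria, had a strong peak that the optimal list lacks. The pooled relaxed list held a peak at chr7:100607459-100607798 (mm10), 672 bp downstream of the start, with a signal of 76.0 at rank 8823, and values of 37.8 in replicate 1 and 39.5 in replicate 2. It is in the conservative list. Of the 10000 strongest pooled peaks, 14 (0.14%) were absent from the optimal list, and this was among them. In the optimal list the strongest summit within 10 kb of Mrpl48 had 24.6, and on the mm9 list a peak 662 bp downstream had 99.2. In all, 16 conservative summits within 10 kb of 12 members were absent from the optimal list. Among them were 1 at Mrps28, 16 bp downstream (29.7), and 1 at Mrpl45, 5339 bp upstream (53.7). Mrpl48 also had a summit at 83.8 (27.1 and 59.5 in the replicates) 527 bp downstream of a RefSeq start 16887 bp further in.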
